A study of Bos taurus with 55 samples.

Results

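The genes described here are the translation initiation and elongation factors and the aminoacyl-tRNA synthetases of the lactating bovine mammary gland. They were taken by name: symbols that start with EIF and a digit or with EEF, and symbols of 1 or 2 letters before ARS1 or ARS2, leaving out the EIF2AK kinases. The array held 56 such genes among 6636 named genes, and 96 symbols of the RefSeq gene table fit the same rule. Grouped into roles by symbol, 3 fall under start codon selection, 6 under eIF2 and its exchange factor, 11 under eIF3 and 7 under eIF4. A further 1 is EIF6, 3 are elongation factors or their modifiers, 16 are cytosolic synthetases and 9 are mitochondrial synthetases. The groups follow the symbols, and a gene need not act in the step that its group is named for. The synthetases were assigned to cytosol or mitochondria by the number that ends the symbol, not by where each enzyme acts. No probe set was matched to EEF1A1, EIF2S1, EIF2B5 or EIF5A, which are not analysed here.

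Translation begins when eIF2 brings the initiator tRNA to the small ribosomal subunit, eIF3 holds the complex together and the eIF4 factors bind the capped end of the mRNA. Elongation factors then move the ribosome, and each synthetase charges 1 kind of tRNA with its amino acid, in the cytosol, in mitochondria or in both. In the lactating gland this machinery makes the caseins and whey proteins of milk, and initiation there is known to be regulated through eIF2B and through the mTOR pathway, which acts on the eIF4E-binding protein EIF4EBP1.

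The samples were biopsies of the mammary gland from 28 mid-lactation cows of the Holstein-Friesian breed, measured on Affymetrix arrays. In period I, which lasted 23 days, 7 cows each received rapeseed oil, soybean oil, linseed oil or a mixture of these 3 oils, at 2.7% of the diet. In period II all cows received the control diet without added oil for 28 days, and 27 of the 28 cows have an array from it (7 after rapeseed oil, 7 after soybean oil, 6 after linseed oil and 7 after the mixture). All cows, on oil or control, also grazed ryegrass and white clover by day and received silage and concentrate at night. Replicates are different cows, and each cow serves as its own control. Every cow received oil first, at a mean of 176 days in milk at its end against 204 days at the end of the control period, so oil, order of the periods and stage of lactation cannot be told apart.

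Median intensities ran from 9.47 to 12.1 over the 55 arrays, and most arrays of period II were brighter than most of period I. The 5 arrays that the widest gap in mean correlation set apart had the highest medians, 11.2 to 12.1. The 7 least correlated arrays (mean correlation with the others 0.911 to 0.951, against at least 0.961 for the other 48) belong to 6 cows, 3 arrays in period I and 4 in period II. The array names carry 1 of 2 prefixes whose meaning the labels do not give. Prefix 1 covers 25 of 28 arrays of period I and 2 of 27 of period II, and both of these 2 period II arrays are among the 7. Within-prefix changes are therefore printed below beside the pooled ones, as differences between groups of very unequal size. Intensities of the 6 milk protein genes measured summed to between 35964 and 80820 in period I and between 36401 and 83305 in period II.

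Of the 56 genes, 8 were called higher and 12 lower in the oil period, relative to the same cows' control period, at an adjusted p under 0.05. That is 20 genes called, or 35.7%, beside 34.4% of the 10680 probe sets tested. Called higher were 14.3% of the genes, beside 18.8% of all probe sets, and called lower 21.4%, beside 15.6%. The shares are near the background, so the set as a whole did not stand out by its number of calls. The median change of the 56 genes was 0.034 on the log2 scale, beside 0.029 over all probe sets. The changes were small: the median size among the 20 called genes was 0.30, the largest was 0.51, and 0 of them passed 1.5-fold. When each array was centred on its median, 14 genes were called higher and 9 lower in place of 8 and 12, and the median change of all probe sets then stood at 0.091.

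**Figure D1:**
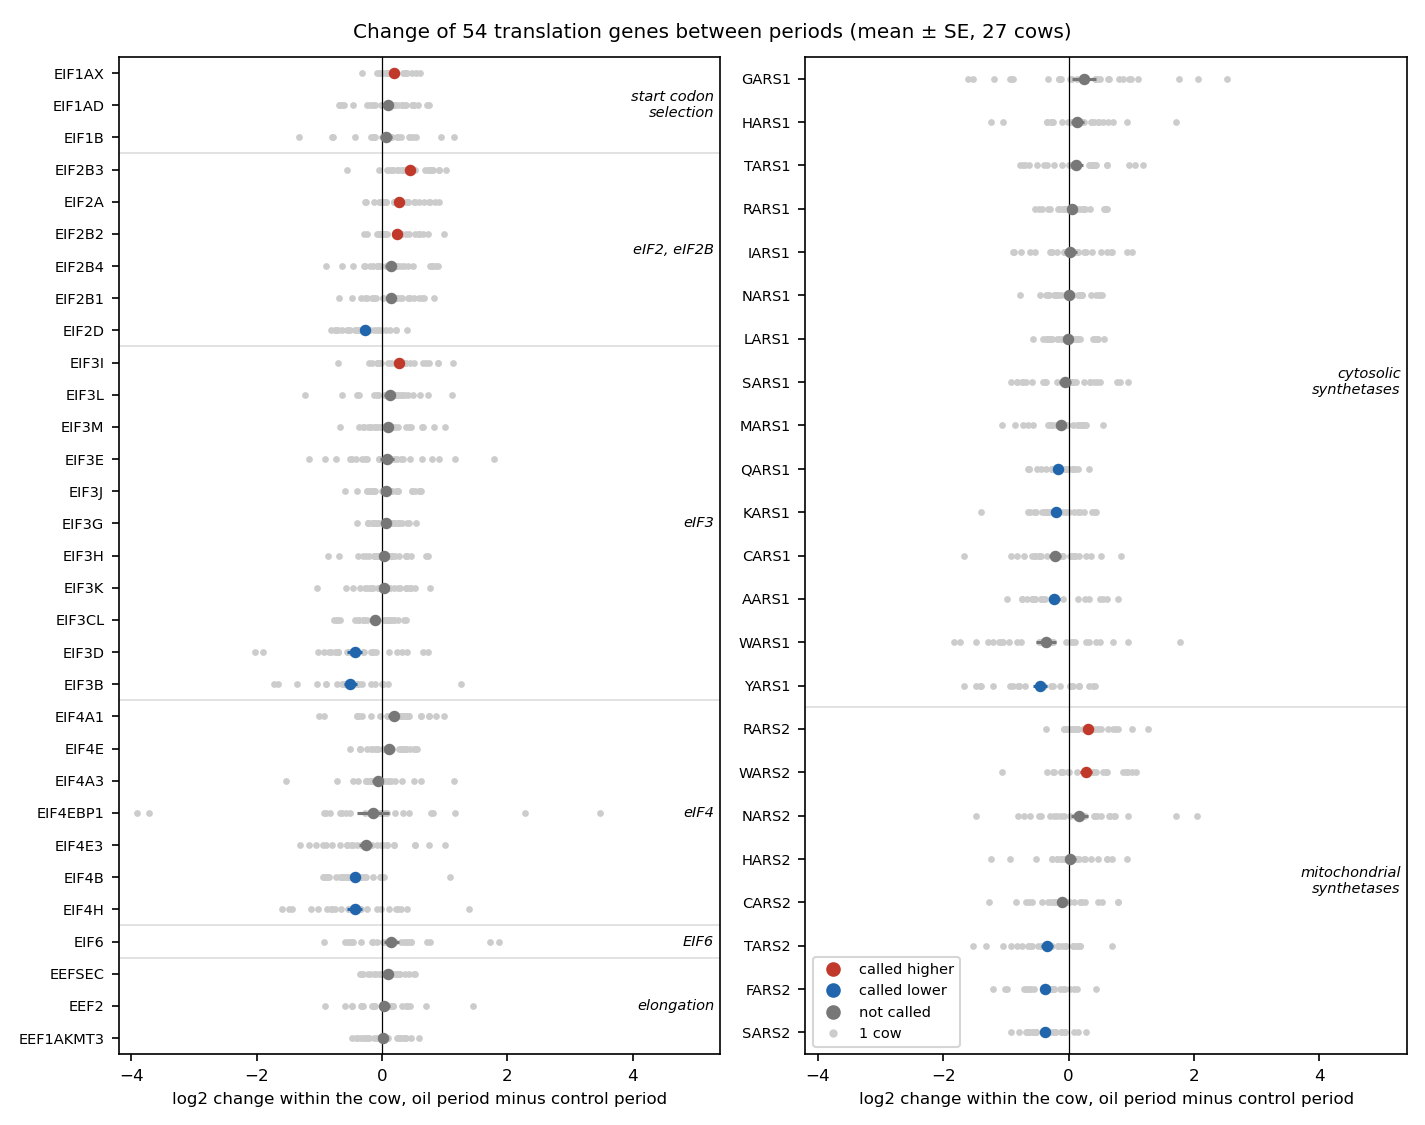
Log2 change of each gene within cows, oil period minus control period, with factors on the left and synthetases on the right. Grey points are the 27 cows, large points the mean with its standard error, red for genes called higher (7), blue for genes called lower (12) and dark grey for the others (35), 54 genes in all. The called means lie between -0.51 for EIF3B and 0.44 for EIF2B3, and EIF4EBP1 has the widest spread over the 27 cows.

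Among the genes grouped by symbol under start codon selection, EIF1AX rose and the other 2 were not called. EIF1AX, which helps the scanning small subunit to find the start codon, stood at 9.91, 10.16 and 10.44 (lowest, median and highest log2 intensity of 28 arrays) in the oil period, against 9.62, 9.95 and 10.54 in 27 arrays of the control period. The 2 ranges overlap, but 23 of 27 cows were higher on oil. The change within cows was 0.19 ± 0.04 (SE, adjusted p = 0.00127), with 0.16 within prefix 1 and 0.28 within prefix 2. EIF1B, a paralogue of the start codon factor EIF1, changed by 0.06 and EIF1AD by 0.09, with adjusted p of 0.65 and 0.413.

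The eIF2B exchange factor, which reloads eIF2 with GTP and is the point where stress kinases slow initiation, was measured through 4 of its subunits. EIF2B3, its gamma subunit, rose by 0.44 ± 0.07 (1.36-fold, adjusted p = 2.12e-05), with 25 of 27 cows up. Its levels were 3.32, 4.18 and 4.84 in the oil period, against 3.33, 3.78 and 4.17 in the control period. The ranges overlap, and the median of the oil period lies just above the highest array of the control period. The change of EIF2B3 was 0.25 within prefix 1 and 0.73 within prefix 2.

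EIF2B2, the beta subunit, also rose, by 0.24 ± 0.06 (adjusted p = 0.00346), in 21 of 27 cows. Its change was 0.47 within prefix 1 and 0.05 within prefix 2. The alpha and delta subunits EIF2B1 and EIF2B4 each had a change of 0.14 and were not called (adjusted p = 0.143 and 0.227). All 4 measured subunits thus had positive estimates, of which 2 passed the test.

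EIF2A and EIF2D carry the family name but are not subunits of eIF2; both can bring initiator tRNA to the ribosome without it, and EIF2D also acts in ribosome recycling. EIF2A rose by 0.27 ± 0.07 (adjusted p = 0.00177), in 21 of 27 cows. EIF2D fell by 0.28 ± 0.06 on the log2 scale (adjusted p = 0.00137), with 21 of 27 cows lower. EIF2D stood at 2.05, 2.51 and 3.14 in the oil period, against 2.17, 2.84 and 3.55 in the control period, so the ranges overlap widely at a low intensity. Within prefix 1 the sign of EIF2D turned (0.06), and within prefix 2 its change was -0.15. EIF2A had changes of 0.07 and 0.18 within prefixes 1 and 2.

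Of the 11 eIF3 subunits measured, EIF3I rose, EIF3B and EIF3D fell, and 8 were not called. EIF3B, the scaffold subunit of the part of eIF3 that is conserved from yeast, showed the largest change among the 20 called genes, -0.51 ± 0.11 (1.42-fold, adjusted p = 6.64e-04). It stood at 5.43, 6.30 and 6.80 in the oil period, against 4.68, 6.86 and 7.67 in the control period. The lowest control array lies far below the other control arrays and below every oil array, and 23 of 27 cows were lower on oil. Its change was -0.26 within prefix 1 and -0.54 within prefix 2.

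EIF3D, the subunit that can bind the cap of some mRNAs, fell by 0.44 ± 0.12 (adjusted p = 0.00601), with 21 of 27 cows lower. Its levels were 7.34, 8.12 and 9.66 in the oil period, against 7.43, 8.54 and 10.19 in the control period. The ranges nearly coincide, and the change was -1.37 within prefix 1 and -0.44 within prefix 2. EIF3D read higher in all 7 of the least correlated arrays than the median of the other arrays of its period, by a median of 1.33. Without the 6 cows that hold those arrays it was still called.

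EIF3I, which sits on EIF3B in the complex, went the other way, with a change of 0.27 ± 0.08 (adjusted p = 0.00805) and 18 of 27 cows higher. It stood at 8.13, 9.06 and 9.61 in the oil period, against 7.62, 8.84 and 9.35 in the control period. The ranges overlap for most of their width, and the change was 0.60 within prefix 1 and 0.30 within prefix 2. The subunits of the larger mammalian core that were measured (EIF3CL, EIF3E, EIF3H, EIF3K, EIF3L and EIF3M), with EIF3G and EIF3J, had estimates between -0.12 for EIF3CL and 0.12 for EIF3L and were not called. In human, EIF3CL is a near-identical copy of EIF3C, so which of them this probe set reads is uncertain.

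**Figure D2:**
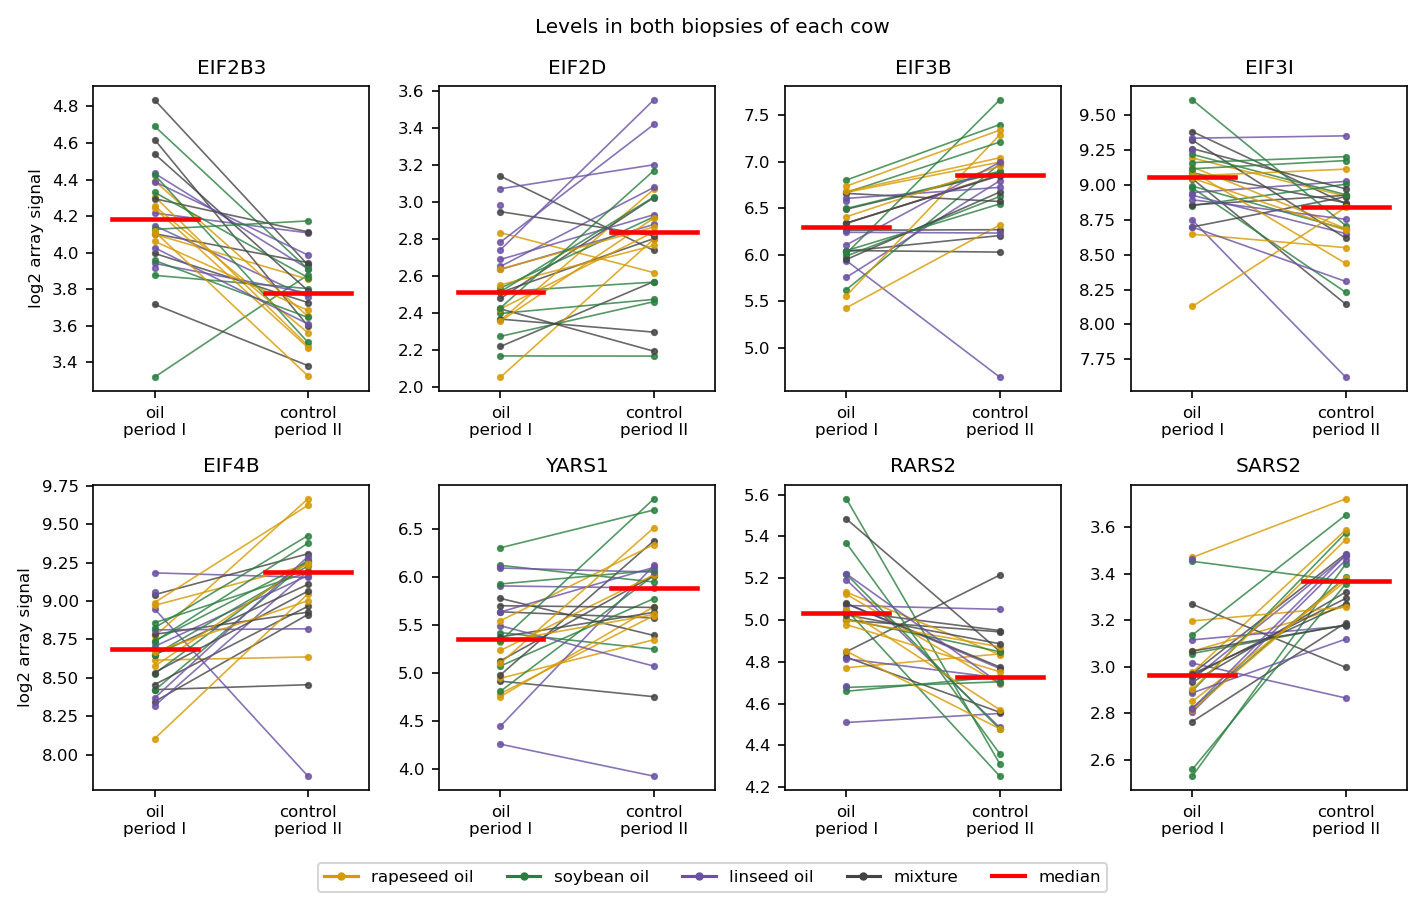
Log2 intensity of 8 called genes in each cow, oil period on the left and control period on the right of each panel. Thin lines join the arrays of a cow, coloured by the oil of period I, and red bars are medians over 28 and 27 arrays. Most lines of EIF2B3, EIF3I and RARS2 run down and most lines of EIF2D, EIF3B, EIF4B, YARS1 and SARS2 run up, while the ranges of both periods overlap in every panel.

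In the eIF4 group 2 of 7 genes fell and 0 rose, with a median change of -0.15. Both genes that fell are partners of the RNA helicase eIF4A, which unwinds the start of the mRNA. EIF4B stood at 8.10, 8.69 and 9.18 in the oil period, against 7.86, 9.19 and 9.66 in the control period. The median of the oil period thus lies well below that of the control period, and 25 of 27 cows were lower on oil. The change was -0.43 ± 0.08 (adjusted p = 1.50e-04), with -0.17 within prefix 1 and -0.49 within prefix 2.

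EIF4H, the other helicase partner, fell by 0.43 ± 0.12 (adjusted p = 0.00652), with 21 of 27 cows lower. It stood at 4.72, 5.94 and 6.89 in the oil period, against 4.00, 6.41 and 7.17 in the control period, with ranges that overlap widely. Its change was -0.05 within prefix 1 and -0.998 within prefix 2. The helicase genes themselves were not called: EIF4A1 had a change of 0.18 (adjusted p = 0.13), and EIF4A3, which belongs to the exon junction complex, -0.07 (adjusted p = 0.572). Under centring of each array the 2 calls of the eIF4 group were joined by EIF4A1 and EIF4E as higher.

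The cap-binding protein EIF4E and its repressor EIF4EBP1 were not called. EIF4E stood at 7.74, 8.24 and 8.55 in the oil period, against 7.65, 8.08 and 8.53 in the control period, a change of 0.11 ± 0.06 (adjusted p = 0.18). EIF4EBP1 stood at 3.90, 7.31 and 7.99 in the oil period, against 3.87, 7.49 and 8.28 in the control period, a change of -0.15 ± 0.26 (adjusted p = 0.692). Over the 27 cows EIF4EBP1 varied more than any other gene of the set, from a change of -3.92 to one of 3.48 (SD 1.43). In the 21 cows left without the 6 it ran from -0.93 to 0.81 (SD 0.46), and GARS1 then varied most (SD 0.96). In the 7 least correlated arrays it was a median of 2.82 below the other arrays of the period, lower in 6 of 7. EIF4E3, a cap-binding relative of EIF4E, had a change of -0.26 (adjusted p = 0.0586).

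EIF6, which keeps the large ribosomal subunit from joining too early, and the 3 genes of elongation were not called. EIF6 stood at 5.37, 6.05 and 7.66 in the oil period, against 5.11, 5.93 and 7.16 in the control period (change 0.15 ± 0.12, adjusted p = 0.34, 17 of 27 cows higher). EEF2, the factor that moves the ribosome by 1 codon, stood at 10.16, 10.43 and 11.84 in the oil period, against 9.91, 10.49 and 11.43 in the control period. Its change of 0.03 ± 0.09 (adjusted p = 0.785) is smaller than its standard error. EEFSEC, which delivers selenocysteine, had a change of 0.09 (adjusted p = 0.155). EEF1AKMT3, known in human as a methyltransferase acting on EEF1A, stood at 1.65, 2.22 and 3.13 in the oil period, against 1.56, 2.22 and 2.91 in the control period (change 0.01, adjusted p = 0.921).

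Of the 16 cytosolic synthetases 4 fell and 0 rose, with a median change of -0.0365. YARS1, the tyrosine enzyme, changed most, by -0.45 ± 0.12 (adjusted p = 0.00331). It stood at 4.26, 5.35 and 6.30 in the oil period, against 3.92, 5.88 and 6.81 in the control period. The ranges overlap widely, 17 of 27 cows were lower, and the sign turned within prefix 1 (0.35, against -0.40 within prefix 2). QARS1 (glutamine) fell by 0.17 ± 0.05 (adjusted p = 0.0122) and KARS1 (lysine) by 0.20 ± 0.07 (adjusted p = 0.0383), each with 19 of 27 cows lower.

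AARS1 (alanine) fell by 0.23 ± 0.09 (adjusted p = 0.0463), with 20 of 27 cows lower. QARS1 and KARS1 kept a negative change within both prefixes (-0.38 and -0.11 for QARS1, -0.48 and -0.25 for KARS1), whereas AARS1 had 0.26 within prefix 1 and -0.51 within prefix 2. With each array centred on its median, YARS1 alone of these 4 was called, and with quantile normalization AARS1 was lost. The calls of QARS1, KARS1 and AARS1 thus depend on the scaling of the arrays.

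The other 12 cytosolic synthetases were not called. Their estimates lay between -0.36 ± 0.16 for WARS1 (tryptophan, adjusted p = 0.0751) and 0.24 ± 0.19 for GARS1 (glycine, adjusted p = 0.328). CARS1 (cysteine) had a change of -0.22 (adjusted p = 0.0697). Without the 6 cows, which was tried after the data were seen, WARS1 (-0.50, adjusted p = 0.00964) and CARS1 (-0.30, adjusted p = 0.0151) were called lower as well, which made 6 of 16. LARS1, IARS1 and NARS1, the enzymes for leucine, isoleucine and asparagine, had estimates between -0.01 and 0.03.

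The mitochondrial synthetases, which charge the tRNAs of the organelle, moved in both directions: of 9 genes 3 rose and 3 fell. SARS2 (serine) stood at 2.53, 2.97 and 3.47 in the oil period, against 2.87, 3.37 and 3.72 in the control period. It fell by 0.38 ± 0.06 (adjusted p = 2.43e-05), with 24 of 27 cows lower and ranges that overlap. Its change was -0.32 within prefix 1 and -0.41 within prefix 2. FARS2 (phenylalanine) fell by 0.37 ± 0.07 (adjusted p = 1.86e-04) and TARS2 (threonine) by 0.35 ± 0.09 (adjusted p = 0.00558). Both were negative within prefix 1 (-0.18 and -0.66) and within prefix 2 (-0.34 and -0.23).

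RARS2, the arginine enzyme, stood at 4.51, 5.03 and 5.58 in the oil period, against 4.25, 4.73 and 5.22 in the control period. It rose by 0.31 ± 0.07 (adjusted p = 0.00112), with 22 of 27 cows higher, 0.40 within prefix 1 and 0.16 within prefix 2. WARS2 (tryptophan) rose by 0.28 ± 0.09 (adjusted p = 0.0182), in 18 of 27 cows. Within prefix 1 the change of WARS2 was -0.61, of opposite sign, and within prefix 2 it was 0.18. NARS2, HARS2 and CARS2 were not called. SARS2, FARS2, TARS2, EIF2B3 and EIF2D have a mean log2 intensity under 4, as do 58.4% of all probe sets tested. Of the 14 genes of the set at this low intensity 6 were called, and of the other 42 genes 14.

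**Figure D3:**
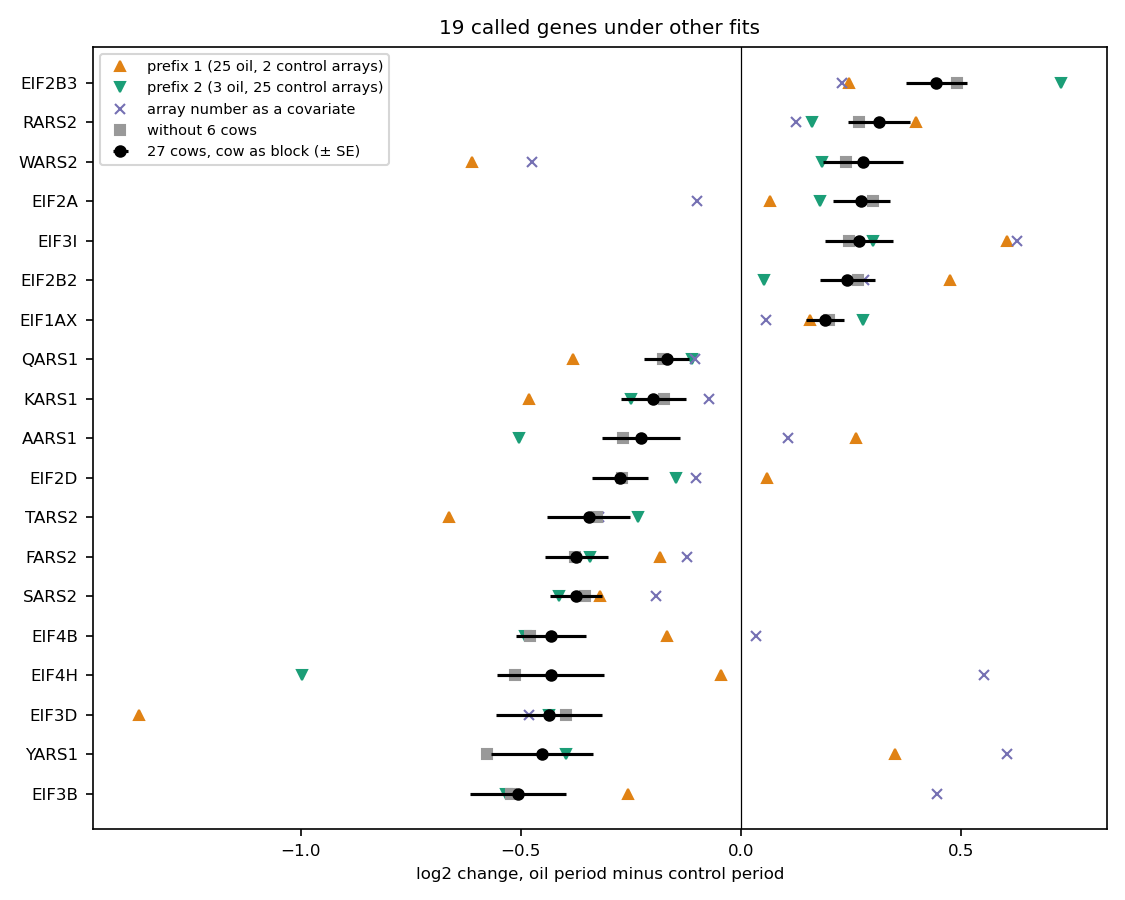
Log2 change, oil period minus control period, of 19 called genes in the fit over 27 cows (black, with standard error) and in other fits. Within prefix 2 (green) all 19 keep their sign, within prefix 1 (orange) 15 do, and with the array number as a covariate (crosses) 12 do. The array numbers of the periods do not overlap. Grey squares leave out the 6 cows with a least correlated array and stay close to the black points.

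The array-name prefix nearly coincides with the period, so each value rests on few arrays of 1 side: 2 control arrays within prefix 1 and 3 oil arrays within prefix 2. Of the 20 called genes 16 had the pooled sign within prefix 1, 20 within prefix 2 and 16 within both. With cow and prefix in 1 fit 19 kept the sign and 7 were called again, namely EIF3I and RARS2 as higher and EIF3D, KARS1, QARS1, SARS2 and TARS2 as lower. In that fit EIF3CL was called lower as well. The fit takes its estimate only from the 5 cows with both arrays under 1 prefix. Cows 1 and 2 are among these 5, and their control arrays are among the 7 least correlated arrays. The calls of that fit thus rest partly on these arrays. With the array number as a covariate, 13 kept the sign and only EIF3I was called again. The numbers run from 1 to 28 in period I and from 29 to 55 in period II, without overlap. That fit thus cannot separate the period from the array order, and an effect of the order was not tested. Prefix and period cannot be told apart beyond the fits given here.

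Cell type markers moved between the periods as well. Of the measured markers 4 of 8 for luminal epithelium, 4 of 8 for endothelium, 5 of 8 for fibroblasts and 2 of 7 for macrophages were lower in the oil period, and 0 of these lists' genes were higher. Of all probe sets 15.6% were called lower and 18.8% higher. The summed intensity of the luminal list ran from 1905 to 6455 in the oil period, against 2114 to 7446 in the control period. The fibroblast list ran from 3994 to 23554, against 3650 to 19262 in the control period. Milk protein genes had 1 of 6 lower and adipocyte genes 2 of 6 higher and 1 lower. Triacylglycerol synthesis had 1 of 8 higher and 2 lower, myoepithelium 1 of 4 lower and neutrophils 0 of 4 called. T and B cells had 1 of 6 higher and 1 lower, and all 6 of these markers averaged under log2 4. In these bulk biopsies fewer cells of a type and less RNA per cell cannot be told apart, and the part of the markers in the changes was not tested.

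Each oil was also compared with the same cows' control period. Within a single oil the prefixes hold too few arrays of 1 side for a value of their own. All 20 called genes had the pooled sign on each of the 4 oils, but they had been called from these same cows pooled. The shared sign is thus partly built into the choice of the genes and is no separate support. On rapeseed oil 1 of the 56 genes was called higher, beside 1.54% of all probe sets, and 4 lower, beside 2.33%. EIF2B3 rose by 0.63 ± 0.13 (adjusted p = 0.0124) in 7 of 7 cows. Its levels were 4.06, 4.24 and 4.39 (lowest, median and highest) on rapeseed oil, against 3.33, 3.56 and 3.86 in the control period. The 2 ranges do not overlap.

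The 4 genes that fell on rapeseed oil did so in 7 of 7 cows each. They were YARS1 (-0.77 ± 0.22, adjusted p = 0.0498), EIF3B (-0.71 ± 0.20, adjusted p = 0.0442), EIF4B (-0.54 ± 0.15, adjusted p = 0.0478) and SARS2 (-0.41 ± 0.12, adjusted p = 0.0494). All 4 lie just inside the threshold. Without the 6 cows, which leaves 5 cows on rapeseed oil, none of these 4 was called, with changes of -0.84 for YARS1, -0.47 for EIF3B, -0.38 for EIF4B and -0.40 for SARS2 (adjusted p between 0.0746 and 0.0945). EIF2B3 was still called there (0.57, adjusted p = 0.0351).

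Soybean oil gave the most calls, 3 higher (beside 6.29% of all probe sets) and 6 lower (beside 7.22%). EIF4H had the largest change, -0.99 ± 0.21 (1.99-fold, adjusted p = 0.00365), lower in 7 of 7 cows. It stood at 5.22, 5.73 and 6.22 on soybean oil, against 6.41, 6.82 and 7.17 in the control period, without overlap. EIF3B fell by 0.81 ± 0.20 (adjusted p = 0.00835) and EIF4B by 0.61 ± 0.15 (adjusted p = 0.0108), each in 7 of 7 cows. EIF3D fell by 0.70 ± 0.24 (adjusted p = 0.0495), KARS1 by 0.49 ± 0.14 (adjusted p = 0.0222) and SARS2 by 0.50 ± 0.12 (adjusted p = 0.00618).

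On soybean oil RARS2 rose by 0.55 ± 0.14 (adjusted p = 0.00822), although only 5 of 7 cows were higher. EIF1AX rose by 0.29 ± 0.09 (adjusted p = 0.0269) in 7 of 7 cows. Without the 6 cows EIF1AX just missed the threshold (0.25, adjusted p = 0.0535), EIF2B3 passed it (0.42, adjusted p = 0.0422), and the other 8 genes were called as before.

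On linseed oil FARS2 was the 1 gene called, -0.58 ± 0.15 (adjusted p = 0.0464), lower in 5 of 6 cows. The background was 0.890% of probe sets lower and 0.403% higher. FARS2 stood at 1.66, 2.09 and 2.27 on linseed oil, against 2.07, 2.51 and 3.21 in the control period. The ranges overlap, and the call was lost without the 6 cows (-0.54, adjusted p = 0.148, 4 cows left). On the mixture 0 genes were called by limma, beside 0.131% of probe sets called higher and 0.0187% lower. At an unadjusted p under 0.05 stood 8 of 56 genes (14.3%), beside 13.6% of all probe sets. EIF2B3 was called higher without the 6 cows (0.58, adjusted p = 0.047).

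**Figure D4:**
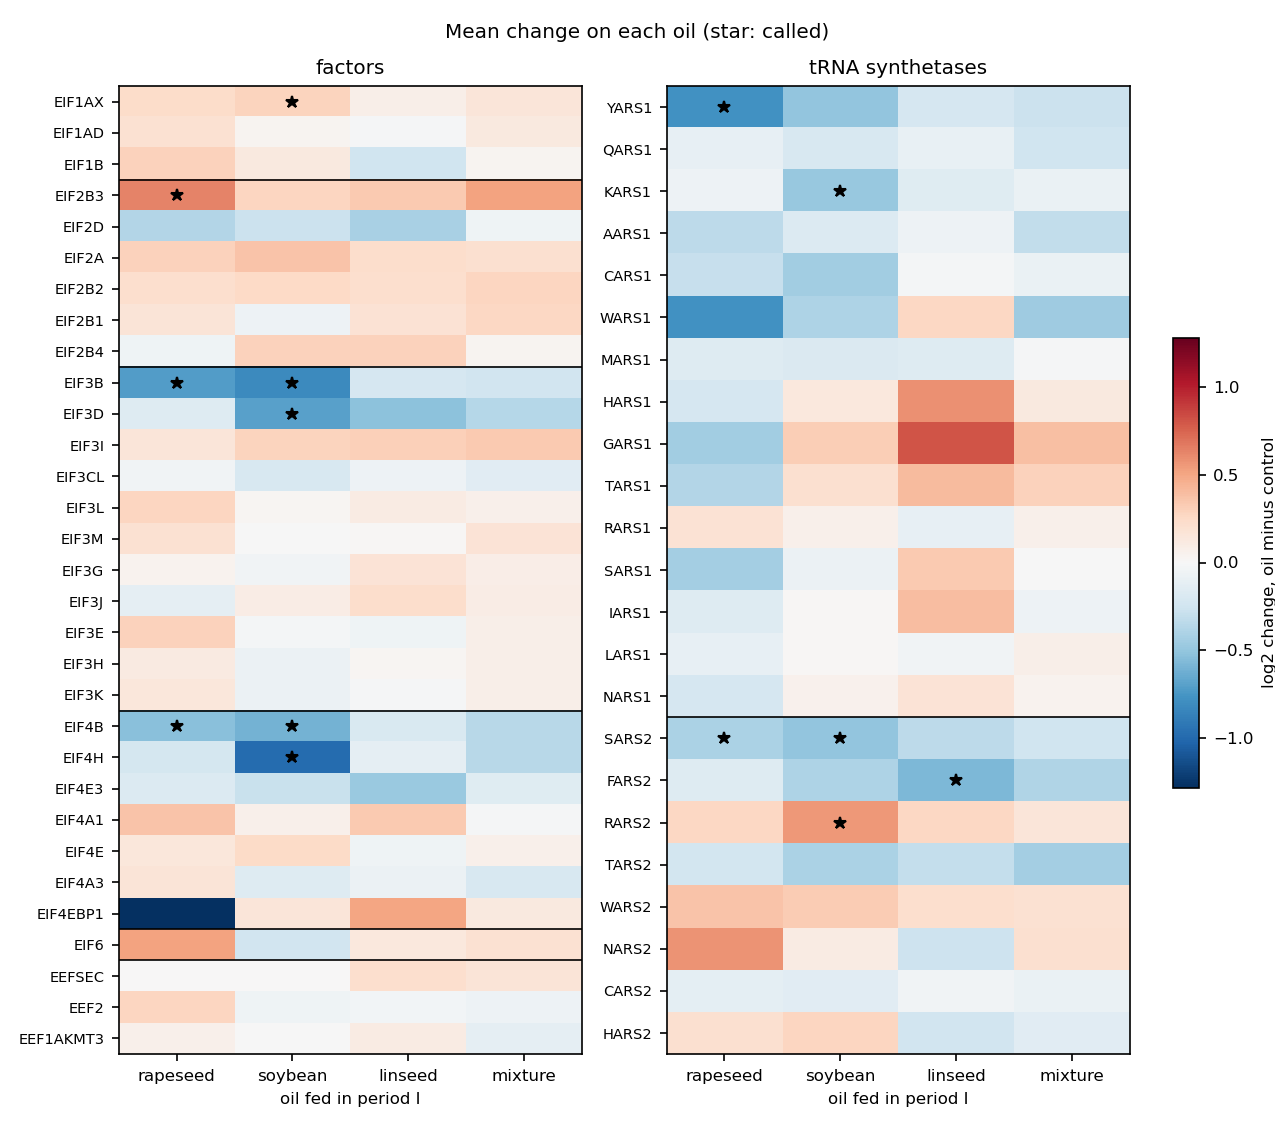
Mean log2 change of each gene on each oil, oil period minus control period (red higher, blue lower), with factors on the left and synthetases on the right. For the 54 genes drawn, stars mark 14 calls: 5 on rapeseed oil, 8 on soybean oil, 1 on linseed oil and 0 on the mixture. The darkest cell, EIF4EBP1 on rapeseed oil (-1.28), was not called; without the 6 cows, of which cows 10 and 12 had changes of -3.92 and -3.72 there, it was -0.27.

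The stars do not by themselves show that oils differ, so the difference between the 4 changes was tested directly. For 0 of 56 genes, and 0 of 10680 probe sets, did limma's F test pass after adjustment, and the lowest adjusted p among the 56 genes was 0.948. At an unadjusted p under 0.05 stood 3 of 56 genes (5.36%), beside 4.55% of all probe sets. The smallest were those of TARS1 and EIF4H (unadjusted p = 0.0196 and 0.0368).

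TARS1, the cytosolic threonine enzyme, had changes of -0.38 ± 0.17 on rapeseed oil, 0.21 ± 0.17 on soybean oil, 0.41 ± 0.19 on linseed oil and 0.30 ± 0.17 on the mixture. On linseed oil 6 of 6 cows were higher, and on rapeseed oil 5 of 7 were lower. TARS1 is low in all 7 least correlated arrays, and without the 6 cows its changes were -0.23, 0.064, 0.22 and 0.15 in the same order of oils. Of the 16 cytosolic synthetases 14 had a negative estimate on rapeseed oil, 8 on soybean oil, 8 on linseed oil and 9 on the mixture. The counts were 14, 12, 9 and 8 without the 6 cows. With all cows the median change of all probe sets was 0.0472, 0.0395, -0.0066 and 0.0106 in the same order of oils. The share of all probe sets with a negative estimate was not counted. Cytosolic synthetases varied together from cow to cow, as given below, so their signs are not separate observations. A difference between the oils in these counts was not tested. GARS1 ran from -0.44 ± 0.35 on rapeseed oil to 0.81 ± 0.38 on linseed oil, with adjusted p of 0.495 and 0.249.

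Within period I the diets could be compared between cows. For 0 of 56 genes was the F test passed (lowest adjusted p 1.00), with 3 at an unadjusted p under 0.05 (GARS1, TARS1 and EIF2D, unadjusted p = 0.0126, 0.0148 and 0.0258), or 5.36% beside 2.59% of all probe sets. GARS1 had 6.63, 7.02 and 8.13 in cows on rapeseed oil, 7.42, 8.32 and 8.88 on soybean oil, 7.10, 8.26 and 8.93 on linseed oil, and 7.00, 7.90 and 9.01 on the mixture. TARS1 had 8.71, 9.66 and 10.11 on rapeseed oil, 9.71, 10.12 and 10.34 on soybean oil, 9.36, 10.03 and 10.23 on linseed oil, and 9.78, 9.98 and 10.47 on the mixture. For both genes the rapeseed cows had the lowest median, and their range overlapped that of every other diet. Cows 10 and 12 on rapeseed oil, and cow 5 on linseed oil, have a period I array among the 7 least correlated arrays. Both genes were lower in 7 of 7 of those arrays. Without the 6 cows, 6 genes (10.7%) stood at an unadjusted p under 0.05 of the F test. There were also 6 without the 5 cows whose arrays the widest gap in correlation set apart.

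In period II, when all cows ate the control diet, 0 of 56 genes passed the F test over the earlier diets (lowest adjusted p 0.976), with 5 at an unadjusted p under 0.05 (8.93%, beside 3.72% of all probe sets). There were 2 of 56 (3.57%) without the 6 cows, and without the 5 cows set apart by the widest gap in correlation 3 (5.36%). Within the prefix of most arrays of period II there were 7 (12.5%, lowest adjusted p of the F test 0.809). The 5 in the fit over all arrays of the period were EIF2D, EIF4H, HARS2, RARS2 and EIF3B. EIF2D, with the smallest unadjusted p (0.0079), had 2.62, 2.84 and 3.07 after rapeseed oil, 2.17, 2.57 and 3.17 after soybean oil, 2.88, 3.14 and 3.55 after linseed oil, and 2.19, 2.74 and 3.02 after the mixture. The ranges of neighbouring groups overlap. EIF4H, the next (0.0225), had 5.97, 6.67 and 7.00 after rapeseed oil, 6.41, 6.82 and 7.17 after soybean oil, 4.00, 6.21 and 6.62 after linseed oil, and 5.27, 6.20 and 7.06 after the mixture. The control arrays of the soybean cows therefore had the highest EIF4H median of the 4, and these same arrays stand on the control side of the soybean change above.

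Other genes of the pathway were read in the same way as the oil period against the control period, from lists that do not overlap the set. Not every listed gene was measured. The counts below stand beside 18.8% of all probe sets called higher and 15.6% lower. Among 9 genes of the eIF2 kinases and the stress response, 2 rose and 1 fell, with a median change of -0.066. EIF2AK2, the kinase activated by double-stranded RNA, rose by 0.50 ± 0.12 (adjusted p = 0.00188), and TRIB3, a stress-induced pseudokinase, by 0.53 ± 0.15 (adjusted p = 0.0075). EIF2AK1, the kinase that senses haem, fell by 0.28 ± 0.05 (adjusted p = 1.28e-04). EIF2AK2, TRIB3 and EIF2AK1 all have a mean log2 intensity under 4. Within prefixes 1 and 2 the changes were 0.40 and 0.23 for EIF2AK2 and 0.79 and 0.61 for TRIB3, while EIF2AK1 had 0.035 and -0.34, a turned sign within prefix 1. ATF4, the transcription factor that several synthetase genes respond to in mouse and human cells, had a change of -0.13 (adjusted p = 0.27), and DDIT3 one of -0.07 (adjusted p = 0.611).

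Of 14 listed genes of the mTOR pathway 6 were measured, and MTOR and RPTOR were not among them. Of these 6 genes 3 fell and 0 rose, with a median change of -0.20. AKT1, the kinase upstream of mTOR, had the largest change of these lists, -1.08 ± 0.20 (adjusted p = 1.21e-04), lower in 25 of 27 cows. It was -0.64 within prefix 1 and -1.19 within prefix 2. MLST8, a subunit of both mTOR complexes, fell by 0.36 ± 0.05 (adjusted p = 3.51e-06) at a low intensity and was lower in 26 of 27 cows, with -0.04 within prefix 1 and -0.48 within prefix 2. DDIT4, an inhibitor of mTOR signalling, fell by 0.43 ± 0.14 (adjusted p = 0.0147), with 0.0054 within prefix 1 and -0.90 within prefix 2. RHEB and RPS6KB1 were not called.

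Among 9 genes of termination, recycling and poly(A) binding, 2 rose and 2 fell. MCTS1, which works in ribosome recycling as EIF2D does, rose by 0.50 ± 0.06 (adjusted p = 8.61e-07), in 25 of 27 cows, with 0.36 within prefix 1 and 0.47 within prefix 2. It stood at 6.87, 7.43 and 7.84 in the oil period, against 6.41, 6.94 and 7.35 in the control period. PABPC1 and PABPC4, the poly(A)-binding proteins that join the mRNA tail to the eIF4 complex, fell by 0.25 ± 0.07 (adjusted p = 0.00598) and 0.36 ± 0.08 (adjusted p = 7.85e-04). PAIP2, which inhibits PABPC1, rose by 0.14 (adjusted p = 0.0254). All 3 kept their sign within prefix 1 (-0.47, -0.68 and 0.04) and within prefix 2 (-0.35, -0.25 and 0.15).

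Of 5 genes of the multisynthetase complex and of synthetases that the name rule leaves out, AIMP2 and FARSB rose (0.44 ± 0.08 and 0.32 ± 0.07, adjusted p = 1.36e-04 and 7.99e-04) and FARSA fell by 0.19 ± 0.07 (adjusted p = 0.0425). AIMP2 is a scaffold of the complex that holds KARS1 and QARS1, both of which fell. FARSA and FARSB are the 2 subunits of the cytosolic phenylalanine enzyme and moved in opposite directions. FARSA, at low intensity, had 0.30 within prefix 1, of opposite sign, and -0.365 within prefix 2. AIMP2 had 0.94 and 0.43, and FARSB 0.41 and 0.43, within prefixes 1 and 2. Of 7 mitochondrial translation factors, GFM2, at low intensity, rose (0.16, adjusted p = 0.0298, with 0.42 within prefix 1 and 0.17 within prefix 2). Of these factors 0 fell, and their median change was 0.16. DHPS, which starts the hypusine modification of eIF5A, was not called (-0.09, adjusted p = 0.497).

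Genes of the set also varied together from cow to cow, and this is given as a description, without a test. It is given for the 21 cows without a least correlated array, because the 6 others stand apart; the points share the arrays and their scaling. Over all 1540 pairs of the 56 genes the median Pearson's r of the changes was 0.055. Within the eIF3 subunits it was 0.27, within the cytosolic synthetases 0.23 and within the mitochondrial synthetases -0.011. The closest pairs lay inside the first 2 groups.

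GARS1 and TARS1 had r = 0.85 (Spearman's rho 0.84, 21 cows), and GARS1 with SARS1 had r = 0.83 (rho 0.79). TARS1 with WARS1 had r = 0.79 (rho 0.78), and SARS1 with TARS1 had r = 0.78 (rho 0.79). MARS1 (methionine), at low intensity, had r = 0.81 with GARS1, 0.78 with TARS1 and 0.71 with SARS1. Over all 27 cows these 3 values were 0.61, 0.30 and 0.23. Over the 21 cows these pairs link the glycine, threonine, serine, tryptophan and methionine enzymes, with no value given here for MARS1 with WARS1. Other pairs were as close as MARS1 with SARS1: AARS1 with NARS1 (r = 0.75), GARS1 with NARS1 (0.74) and GARS1 with IARS1 (0.72). Over the same 21 cows WARS1 was called lower, and GARS1, TARS1, SARS1 and MARS1 were not called. Among eIF3 subunits, EIF3E with EIF3M had r = 0.83 (rho 0.78) and EIF3E with EIF3H r = 0.80 (rho 0.72), and these 3 were likewise not called. EIF3D, which was called, was closest to KARS1, with r = 0.72 (rho 0.65). Within the 6 other cows the same pairs had r of 0.996 (EIF3E with EIF3M), 0.96 (EIF3E with EIF3H), 0.77 (GARS1 with TARS1) and 0.57 (GARS1 with SARS1).

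**Figure D5:**
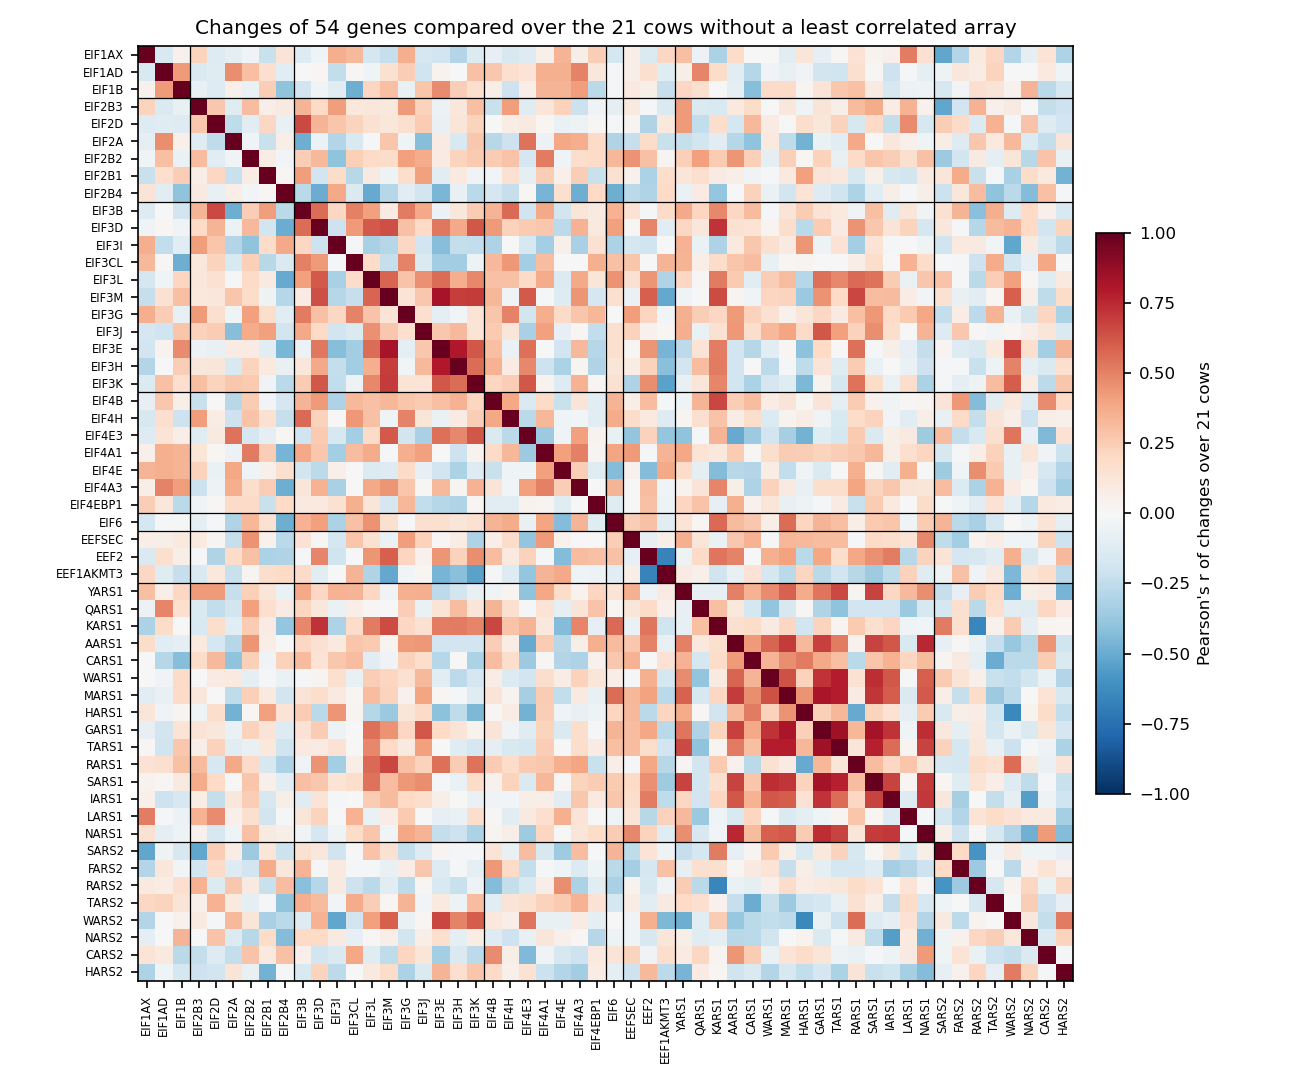
Pearson's r between the within-cow changes (oil period minus control period) of every pair of 54 genes over the 21 cows without a least correlated array, red for positive and blue for negative r. Black lines separate the roles. Red blocks lie among the cytosolic synthetases (around GARS1, TARS1, SARS1 and WARS1) and among eIF3 subunits (EIF3E, EIF3H and EIF3M).

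Parts of these 2 groups were also set apart in the 7 least correlated arrays, in opposite directions. Relative to the median of the other arrays of the same period, TARS1 was lower in 7 of 7 (median -1.18), as were HARS1 (-1.14), GARS1 (-1.09), WARS1 (-0.99), CARS1 (-0.96), YARS1 (-0.94) and SARS1 (-0.85). EIF3E was higher in 7 of 7 (1.48), as were EIF3D (1.33), EIF3M (0.95), EIF3H (0.77), EIF3K (0.75), EIF3L (0.74) and, outside eIF3, EEF2 (0.75) and EIF6 (1.20). Neither group moved as a whole. EIF3I (-0.56), EIF3G (-0.36) and EIF3J (-0.29) were lower in 7 of 7, and EIF3B (-0.78) in 6 of 7. Among the cytosolic synthetases RARS1 (0.38) was higher in 7 of 7, and KARS1 (0.58) and QARS1 (0.38) in 6 of 7. In the same arrays genes of triacylglycerol synthesis were lower in 7 of 7 (median of the list's mean -2.55) and milk protein genes in 6 of 7 (-0.40). Fibroblast (1.63), neutrophil (1.98), luminal (1.04) and macrophage (1.02) markers were higher in 7 of 7. These arrays fall in both periods and their part in the synthetase and eIF3 values was not tested; without their cows 7 genes were called higher and 14 lower, and 19 of the 20 calls stayed.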

How the data were processed

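Total RNA of mammary biopsies (2 micrograms each) was measured on Affymetrix bovine arrays. The deposited values are probe set intensities on a linear scale; the authors used RMA and GCRMA per the submitters' processing notes, without a version or a stated role. The log2 of these intensities was taken here with no further scaling. Of 11495 probe sets 112 were controls and 703 repeated the values of another, which left 10680. RefSeq accessions were matched to symbols for 6649 of them. Each of the 56 genes has 1 probe set, and levels of different probe sets are not compared. Coordinates and sequences are not used here.

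The 27 cows with both arrays were fitted with limma 3.58.1 in R 4.3.3 (lmFit and eBayes, two-sided), with the cow as a fixed block. Cow numbers pair the arrays because both biopsies come from the same animal; deviations of a cow's 2 arrays correlated by a median of 0.176 (over 0.1 in 17 of 27 cows). Each oil had its own period effect in 1 further fit, and limma's F tested whether oils differed in their change and whether diets differed inside 1 period. P-values were adjusted by Benjamini-Hochberg over all 10680 probe sets, and a gene was called under 0.05. Changes are log2, period I minus period II. The number of arrays limits the precision. The scripts were checked on simulated data. Genes described in full were, per role, the called gene with the smallest p in each direction, those with the smallest p of each F test, the highest and lowest in mean level, and 8 factors named for their role, of which 4 had a probe set. Of the 56 genes 54 are reported individually; the others are in the counts and are not reported here. The members and all lists were chosen with earlier results of these data known. Alternatives were centring, quantile normalization, leaving out dim probe sets, other blocks, the array-name prefix or number, and leaving out cows with arrays apart.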

Additional observations from a re-analysis of the deposited data

Results flagged for a closer look

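Among 68 groups of 6 or 7 cows examined for the genes described in full, 2 held a cow far from the others of its oil; chance sets apart about 1 in 20. The change of EIF3B on rapeseed oil was -1.7311 in cow 10, while the other 6 cows lay between -0.89 and -0.33. The change of EIF4EBP1 on the mixture was 2.2857 in cow 1, while the other 6 cows lay between -0.83 and 0.33. Both cows have 1 of the 7 least correlated arrays. Without the 6 cows with such arrays the change of EIF3B on rapeseed oil was -0.47 (adjusted p = 0.0886), and that of EIF4EBP1 on the mixture was -0.23, against 0.13 with all 7 cows, and was not called in either.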

How the results depend on the processing

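Over all oils 8 genes were called higher and 12 lower. The counts were 14 and 9 with arrays centred on their median, 6 and 7 without dim probe sets (42 genes left), 2 and 6 with the replicate block and the array-name prefix in 1 fit, 0 and 1 within prefix 1, 1 and 0 within prefix 2, and 5 and 0 with the array number. With no replicate block they were 7 and 10, so the paired fit over cows moved the counts little. With cow and prefix the median change of the 56 genes was -0.11. That fit takes its estimate only from the 5 cows with both arrays under 1 prefix. Of these, cows 1 and 2 each have a control array among the 7 least correlated arrays. Within prefix 1 the sign turned for 4 of the 20 called genes, AARS1 (0.26), EIF2D (0.059), WARS2 (-0.61) and YARS1 (0.35), and for 19 not called, of which EIF3K (-0.74) was then called. With the array number it turned for 7 called genes, AARS1 (0.11), EIF2A (-0.10), EIF3B (0.44), EIF4B (0.034), EIF4H (0.55), WARS2 (-0.48) and YARS1 (0.60), and for 20 not called, of which CARS1 (0.73) was then called. With cow and prefix it turned for 1 called gene, WARS2 (-0.16), and for 15 not called, and within prefix 2 for 0 called and 12 not called. The cause was not tested. Few arrays stand on 1 side of each prefix. The array numbers of the periods do not overlap, so the fit with the number cannot separate it from the period. On rapeseed oil the 1 call higher became 0 without dim probe sets, and also when 5 cows were left out whose arrays the widest gap in correlation set apart. The 4 calls lower became 2 with quantile normalization and 0 with centring, without the 5 or the 6 cows, and with no replicate block. On linseed oil the 1 call lower became 0 with centring, without dim probe sets, without the 5 or the 6 cows, and with no replicate block. On the mixture 0 calls higher became 1 with quantile normalization and without the 6 cows. Leaving out the 6 cows was chosen after seeing the data. Averaging several probe sets of a gene was not run, since no gene of the set had a second one with other values. Low intensity limits 14 of the 56 genes.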
